A study of Mus musculus with 24 samples.

Results

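Akt-RACVECs and Akt-MACs were compared, which sets mouse amniotic cells that carried the transduced Ets factors against amniotic cells that did not, both in the presence of constitutively active Akt. The 6 libraries, 3 of each group, were taken from 24 libraries of 8 groups, and of 22282 genes the 14557 that averaged 1 FPKM or more across the 6 libraries were tested. MACs are amniotic fluid cells of C57BL/6J embryos harvested between E11.5 and E13.5. Akt-MACs carried a lentivirus for myristoylated Akt, a form of the kinase that is held at the membrane and stays active. RACVECs carried lentiviruses for mouse Etv2, Erg and Fli1 without Akt. Akt-RACVECs were RACVECs transduced with the same Akt lentivirus, so Akt was added to cells that already carried the Ets factors. The complementary DNAs stood behind a Pgk promoter in the vector, so expression of the transgenes was not limited to a cell type. A replicate was a separate isolate of amniotic cells from embryos of both sexes, in which several cell types can be mixed. Converting cells were kept on fibronectin in endothelial medium with heparin, a mitogen, an inhibitor of Tgf-β receptors and, during the conversion, Vegf-A, whereas amniotic cells were first cultured in an amniotic medium. The medium of the Akt-MACs and a sort of either group before RNA extraction are not given in the sources used here, so the Ets factors and the culture conditions cannot be told apart.

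Ets factors are transcription factors that bind DNA around a GGAA core, and Etv2, Erg and Fli1 are required for the formation or upkeep of endothelium. Etv2 acts briefly in the embryo at the emergence of blood and vessel precursors, whereas Erg and Fli1 stay on in mature endothelium and drive junction genes such as Cdh5, which encodes VE-cadherin. Akt lies downstream of Vegf and Tie receptors and supports the survival of endothelial cells in culture. Fli1 and its relatives are also active in blood cells, and Spi1, another Ets factor, directs the macrophage programme.

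Expression is given as FPKM, fragments per kilobase of transcript scaled to library size with an upper-quartile correction, summed over the transcripts of a gene. The depth of the libraries is unknown, so that a value listed at 0 sets no limit of detection. The summed FPKM was between 1689486 and 2147794 in the 6 libraries, and 14733 to 14985 genes were above 0 in Akt-MACs against 12356 to 13852 in Akt-RACVECs. A fold change below is a difference of mean log2(FPKM + 1), which understates the change of low genes. It is given ± the SE of the limma fit, whose spread was estimated from all 24 libraries and not from these 6 alone. A gene was called higher when its log2 fold change exceeded 1, or lower when it was beyond -1, if its limma p, adjusted over all genes, was under 0.05. The median log2 fold change of all genes was -0.13, against 0.00 when each library was scaled by its own median shift, and fold changes of lists should be read relative to it.

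Akt-MAC libraries held transcripts of leukocytes, and unequally so. The summed FPKM of 40 macrophage genes was 2417, 24658 and 70011 in Akt-MACs 1, 2 and 3, against 1009, 393 and 307 in Akt-RACVECs and 266 to 1599 in MACs. These genes made up 3.26% of the summed FPKM of Akt-MAC 3, 1.35% of that of Akt-MAC 2 and 0.122% of that of Akt-MAC 1. By this sum Akt-MAC 1 lay closer to the Akt-RACVECs than to the other Akt-MACs. Only the LSECs, liver endothelium taken without culture, reached the range of Akt-MACs 2 and 3, at 39289 to 55468. By the number of the 40 genes above 0, Akt-MAC 1 (38) stood with Akt-MACs 2 (39) and 3 (40). The Akt-RACVECs had 28, 14 and 10 above 0 and the MACs 11, 8 and 14, but Akt-LEC 1 and Akt-liver EC 1 had 39 each. Akt-MAC 1 was therefore not free of macrophage transcripts. Fewer cells of a type and less RNA per cell cannot be told apart in such bulk libraries. Counts of calls on the gene lists below are therefore also given, where they differ, with Akt-MAC 1 as the only Akt-MAC and against MACs. For the macrophage and pan-leukocyte lists the median is given with Akt-MAC 1 alone. The defining macrophage genes Adgre1, C1qb and Tyrobp were listed at 0 in MACs.

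**Figure D1:**
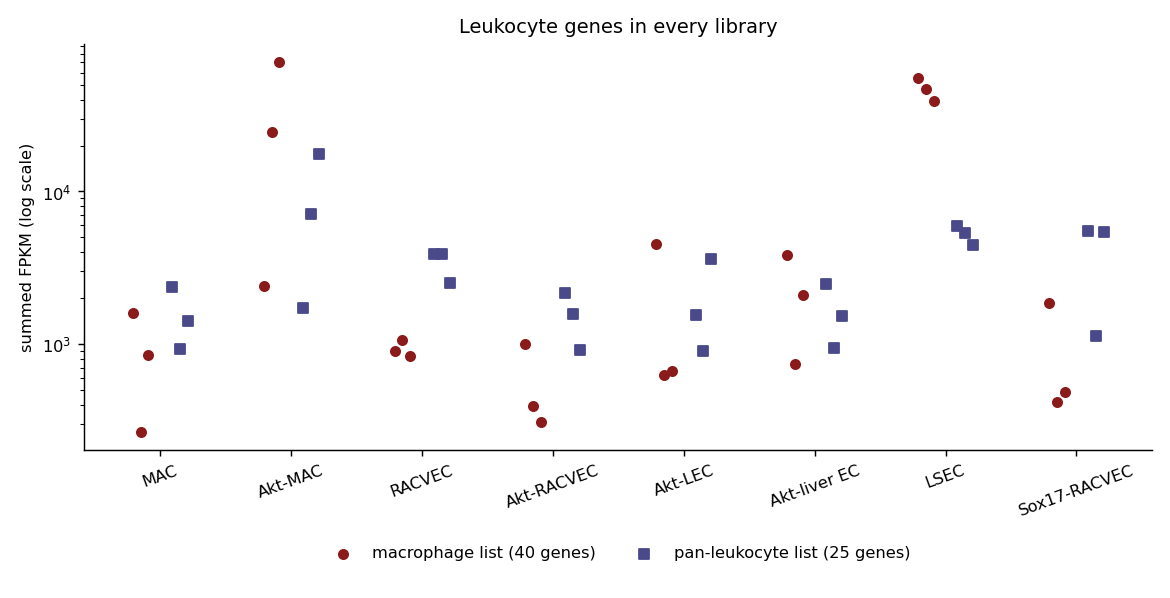
Summed FPKM of the macrophage list (circles, 40 genes) and the pan-leukocyte list (squares, 25 genes) in each of the 24 libraries, on a log scale, with the 3 libraries of each group side by side. Akt-MAC 2 and Akt-MAC 3 reach 24658 and 70011 on the macrophage list, below and above the LSECs at 39289 to 55468, whereas the 3 Akt-RACVECs lie between 307 and 1009.

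In Akt-RACVECs against Akt-MACs, 946 genes were called higher (6.5% of the genes tested) and 2142 were called lower (14.7%). For 15.8% of the genes tested all 3 Akt-RACVECs lay above all 3 Akt-MACs, and for 23.1% all 3 lay below. A lack of overlap in a named gene is to be read beside these shares. Endothelial genes led the rises: Tie1, Cdh5, Icam2, Emcn, Esam and Pecam1 went from under 31 FPKM in each Akt-MAC to at least 723 FPKM in each Akt-RACVEC. The falls were led by Igfbp2, which encodes a secreted binder of insulin-like growth factors, and by macrophage genes such as Marco and Cd5l. With each library left out in turn, the numbers ranged from 550 to 1031 higher and from 1212 to 1935 lower, with the fewest of both without Akt-MAC 2. Of the calls, 415 higher and 891 lower stood in each of the 6 fits that left a library out. With Akt-MAC 1 as the only library of its group, 279 genes were higher and 796 lower, a fit in which that library is assumed to vary like the other groups. Against the 3 MACs in place of the Akt-MACs, 1013 genes were higher and 1187 lower.

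**Figure D2:**
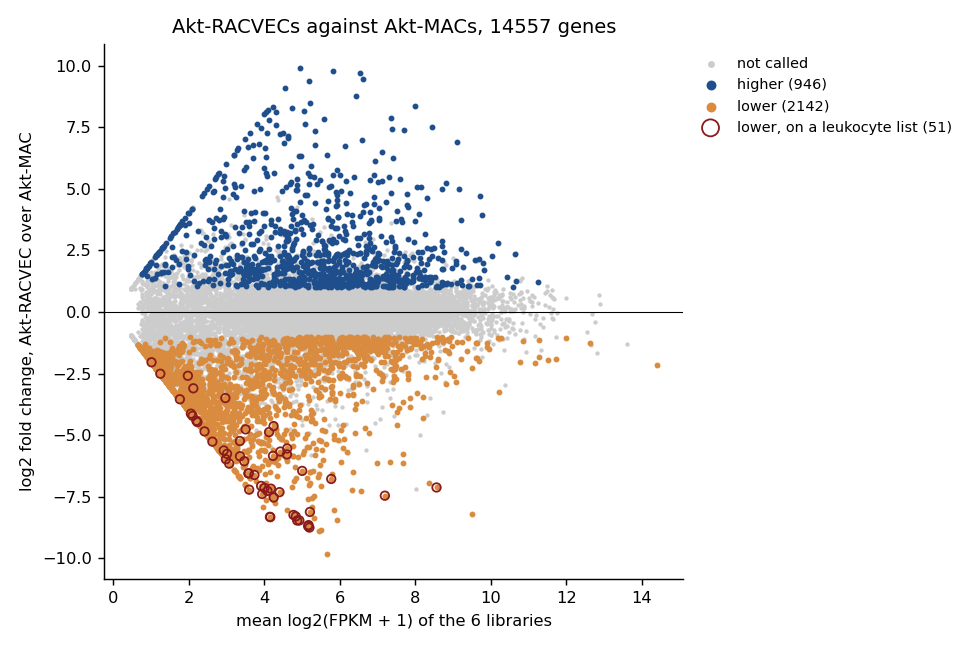
Each point is 1 of 14557 genes, with the mean log2(FPKM + 1) of the 6 libraries on the x axis and the log2 fold change of Akt-RACVECs over Akt-MACs on the y axis. Genes called higher (946) are blue and genes called lower (2142) are orange, and the 51 genes called lower that are on a leukocyte list are circled and lie among the largest falls.

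The transduced genes were measured first. Etv2 (NCBIM37, chromosome 7, 31418635-31421308) was at 127, 572 and 289 FPKM in the 3 Akt-RACVECs and was listed at 0 in every Akt-MAC and MAC. Erg (chromosome 16, 95580776-95808200) was at 395, 1002 and 418 FPKM in Akt-RACVECs and was also listed at 0 in all Akt-MACs. Fli1 (chromosome 9, 32229793-32348974) was at 268, 352 and 328 FPKM against 2.36, 30.2 and 84.4 in Akt-MACs (log2 fold change 3.92 ± 0.73, adjusted p = 0.00128). The groups did not overlap for any of the 3 factors, although Fli1 was clearly present in Akt-MAC 3, the library richest in macrophage genes. A RefSeq transcript collects reads of both the transduced complementary DNA and the resident gene, so these values do not separate the sources. In RACVECs, which carried the same Ets lentiviruses, Erg was only at 3.91, 13.8 and 0.90 FPKM, and Etv2 was at 859.9, 301 and 659. Akt1 was between 848 and 1281 FPKM in the 6 Akt-RACVECs and Akt-MACs and between 551 and 694 in the 6 MACs and RACVECs. It did not differ between Akt-RACVECs and Akt-MACs beyond its spread (log2 fold change -0.08 ± 0.23, adjusted p = 0.825). Sox17-RACVECs, which are RACVECs with a Sox17 lentivirus and none for Akt, were at 884 to 1323 FPKM. Akt-liver ECs, cultured liver endothelium with Akt, were at 559 to 892 FPKM, so Akt1 did not follow the Akt lentivirus in every group.

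Genes of endothelial junctions and of the endothelial surface were higher in Akt-RACVECs as a group. Of 37 genes tested, 26 were called higher and 0 lower, with a median log2 fold change of 3.85 against -0.13 for all genes. Cdh5 (chromosome 8, 106625525-106668402), the cadherin of endothelial adherens junctions, was at 2413, 3887 and 2008 FPKM in Akt-RACVECs and at 0.66, 7.36 and 1.46 in Akt-MACs (log2 fold change 9.68 ± 0.48, adjusted p = 6.89e-10), the smallest adjusted p of all genes tested. Pecam1 (chromosome 11, 106515531-106611942), the adhesion receptor CD31, was at 3649, 6524 and 4132 FPKM against 2.88, 30.9 and 20.9 (log2 fold change 8.37 ± 0.94, adjusted p = 1.45e-05). The lowest Akt-RACVEC was above the highest Akt-MAC by over 2 orders of magnitude for both. Icam2 (chromosome 11, 106238970-106249389), a ligand for leukocyte integrins, was at 1890.4, 2642 and 3446 FPKM against 0, 7.81 and 4.65 (log2 fold change 9.46 ± 0.99, adjusted p = 7.69e-06). Esam, an adhesion molecule of tight junctions, was at 1694, 1679 and 2049 FPKM against 1.34, 4.02 and 4.99 (log2 fold change 8.77 ± 1.09, adjusted p = 4.27e-05). Emcn (chromosome 3, 137004031-137095149), a sialomucin of capillaries and veins, was at 723, 805 and 1373 FPKM against 0, 1.87 and 0 (log2 fold change 9.35 ± 1.00, adjusted p = 8.91e-06). The 3 Akt-RACVECs lay close together for Icam2, Esam and Emcn, and each Akt-MAC was under 10 FPKM. In Akt-LECs, cultured lung endothelium with Akt, Cdh5 was at 1397, 2074 and 3486 FPKM, within the spread of the Akt-RACVECs or below it in 1 library, and Emcn was at 1439, 1472 and 2123 FPKM, above each Akt-RACVEC.

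Not all surface genes followed. Among the 11 genes of this list that were not called were the junction genes Cldn5, Jam2 and Jam3, the connexins Gja4 and Gja5, and the leukocyte adhesion receptors Icam1, Vcam1 and Sele. Sele, or E-selectin, was at 104, 70.2 and 155 FPKM in Akt-RACVECs and 29.3, 260.2 and 0.55 in Akt-MACs (log2 fold change 2.19 ± 1.60, adjusted p = 0.325), so that the groups overlapped. The number of genes called higher on this list was between 23 and 26 with each library left out in turn. It had 17 higher and 0 lower with Akt-MAC 1 alone and 21 higher and 0 lower against MACs.

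**Figure D3:**
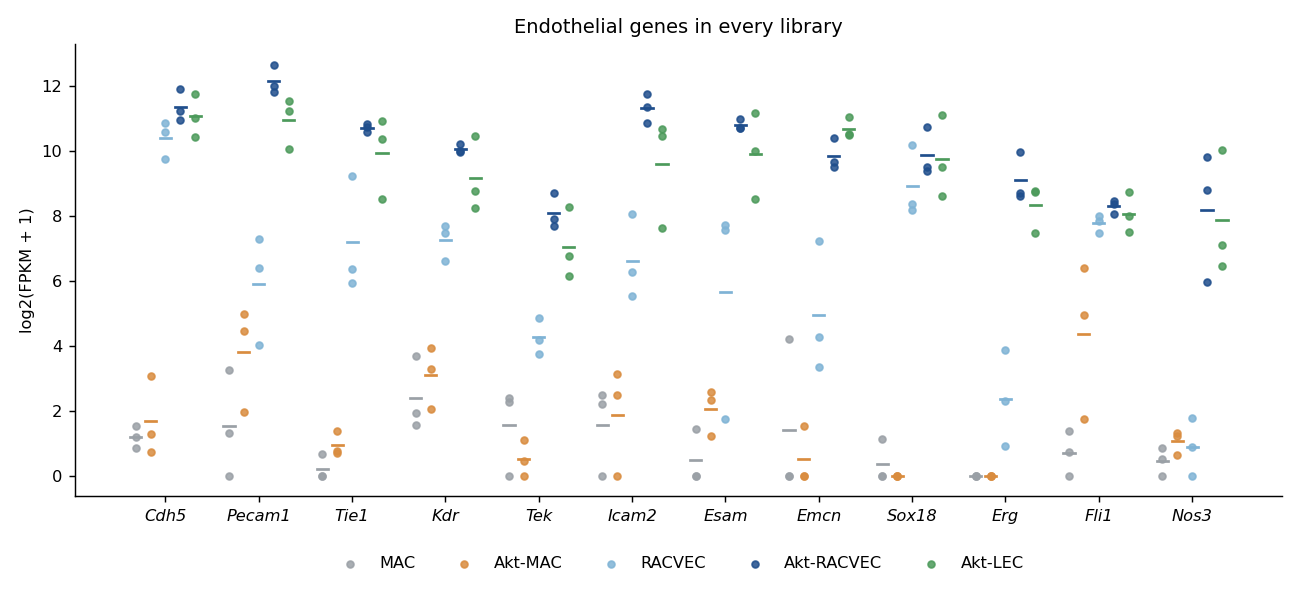
log2(FPKM + 1) of 12 endothelial genes in Akt-RACVECs, RACVECs, the 2 groups of MACs and Akt-LECs, 3 libraries each, with 1 point for each library and a line at the mean of the group. Akt-RACVECs lie far above MACs and Akt-MACs, and RACVECs lie in between for several genes but near the MACs for Nos3, at 0 to 2.46 FPKM.

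Promoters were read for Ets core motifs, since the transduced factors bind such sites. The promoters of 4 endothelial genes that rose are shown because junction and surface genes carry the comparison, and Cdh5, Esam and Icam2, which came before them by rule, have no entry in the table used. Each line gives the 250 bases before the RefSeq transcription start in GRCm38.p6, 5′ to 3′ on the strand of the gene, with each match to the motif AGGAAG, to its CpG form CGGAAG, to the motif AGGAAA, to its CpG form CGGAAA, or to a reverse complement of these in capitals.
Tie1 (chr4:118489850-118490099, minus strand): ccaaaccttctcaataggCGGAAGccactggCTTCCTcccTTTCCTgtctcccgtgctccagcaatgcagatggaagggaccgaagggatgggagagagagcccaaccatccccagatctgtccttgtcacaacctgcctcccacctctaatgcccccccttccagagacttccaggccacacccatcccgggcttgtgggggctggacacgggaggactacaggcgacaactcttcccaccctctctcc
Emcn (chr3:137340828-137341077, plus strand): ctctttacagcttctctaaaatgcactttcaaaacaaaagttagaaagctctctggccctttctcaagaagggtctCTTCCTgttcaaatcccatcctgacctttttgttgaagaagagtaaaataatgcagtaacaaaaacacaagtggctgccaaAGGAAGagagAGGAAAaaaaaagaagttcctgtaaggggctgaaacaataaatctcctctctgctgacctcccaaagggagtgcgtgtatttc
Robo4 (chr9:37401722-37401971, plus strand): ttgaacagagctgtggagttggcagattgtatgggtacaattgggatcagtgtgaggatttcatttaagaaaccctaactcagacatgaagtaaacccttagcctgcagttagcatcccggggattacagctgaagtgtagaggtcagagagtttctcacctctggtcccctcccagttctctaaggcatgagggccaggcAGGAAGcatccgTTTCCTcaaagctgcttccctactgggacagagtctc
Clec14a (chr12:58269259-58269508, minus strand): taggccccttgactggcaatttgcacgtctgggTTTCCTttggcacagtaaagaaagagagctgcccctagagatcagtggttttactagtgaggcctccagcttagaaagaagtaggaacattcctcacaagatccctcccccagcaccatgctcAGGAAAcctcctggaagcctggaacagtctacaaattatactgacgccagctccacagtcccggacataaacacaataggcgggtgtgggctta
The Tie1 and Emcn windows hold 3 matches each and the Robo4 and Clec14a windows hold 2 each, and no match overlaps another. Such short motifs are common. Over the table's window of 250 bases before to 50 after the start, at least 1 of the 4 hexamers was found in 68.1% of the 705 genes called higher that have an entry, in 60.6% of 1630 genes called lower, in 68.2% of 11247 genes tested and in 64.7% of 27025 promoters in the table. Taken singly, CGGAAG was found in 25.0% of genes called higher and 29.7% of genes tested, AGGAAA in 27.8% and 24.1%, AGGAAG in 34.0% and 33.3% and CGGAAA in 13.3% and 14.3%, and none of these shares was tested against another. The longer forms ACCGGAAGT and ACAGGAAGT, which contain CGGAAG and AGGAAG, were found together in 2.41% of genes called higher, 1.84% of genes called lower and 3.11% of genes tested. The median number of CpG dinucleotides was 16 in genes called lower against 20 in genes called higher and in genes tested, and its part in these shares was not tested. A match is a run of letters and no measured site.

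Receptors of the Vegf and Tie families rose together. Of 32 genes of this list, 15 were called higher and 1 lower, with a median log2 fold change of 1.98. Kdr (chromosome 5, 76328852-76374483), the main receptor for Vegf-A, was at 1034, 1016 and 1198 FPKM in Akt-RACVECs and 14.3, 8.76 and 3.15 in Akt-MACs (log2 fold change 6.99 ± 0.62, adjusted p = 7.7e-07). Tie1 (chromosome 4, 118143796-118162666) was at 1716, 1530.1 and 1830.4 FPKM against 0.64, 1.59 and 0.70 (log2 fold change 9.77 ± 0.74, adjusted p = 8.16e-08). Tek (chromosome 4, 94405980-94541667), the angiopoietin receptor Tie2, was at 208, 240.2 and 416 FPKM against 0, 1.16 and 0.36 (log2 fold change 7.59 ± 1.01, adjusted p = 8.91e-05). For each of the 3 receptors the highest Akt-MAC was under 15 FPKM and the lowest Akt-RACVEC was above 200. Ramp2, which forms the adrenomedullin receptor together with Calcrl, was at 2281, 1536 and 4427 FPKM against 13.8, 24.9 and 2.25 (log2 fold change 7.86 ± 0.96, adjusted p = 3.63e-05), and Adgrf5, an adhesion receptor of lung and kidney capillaries, at 443, 746 and 518 against 1.59, 1.18 and 0.36 (log2 fold change 8.14 ± 0.53, adjusted p = 2.43e-08). Flt1, Flt4, Calcrl, Ramp3, S1pr1, Aplnr and its ligand Apln were also called higher. The ligands Vegfa, Vegfb, Vegfc, Angpt1 and Angpt2 and the coreceptors Nrp1 and Nrp2 were not called. The rises numbered between 12 and 16 with each library left out in turn, and the list had 8 higher and 0 lower with Akt-MAC 1 alone and 14 higher and 4 lower against MACs. The 1 fall was Cd36, a fatty acid and thrombospondin receptor of microvessels and macrophages, at 3.23, 7.44 and 0.69 FPKM against 33.9, 785 and 1631 (log2 fold change -6.50 ± 1.75, adjusted p = 0.0123). Its highest values were in the 2 libraries rich in macrophage genes, and it was not called without Akt-MAC 2 (adjusted p = 0.0551) or Akt-MAC 3 (adjusted p = 0.054).

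Of 35 endothelial transcription factors tested, 12 were called higher and 0 lower, with a median log2 fold change of 1.504. Sox18 (chromosome 2, 181404541-181406345), a SoxF factor of vascular development, was at 737, 1701 and 676 FPKM in Akt-RACVECs and listed at 0 in all Akt-MACs. Sox7 was at 448, 322 and 226 FPKM against 2.27, 9.77 and 22.2 (log2 fold change 5.10 ± 0.95, adjusted p = 0.00134). Sox17, the SoxF factor of arterial endothelium, reached only 12.01, 83.5 and 82.2 FPKM against 0, 1.53 and 0 (log2 fold change 5.05 ± 1.11, adjusted p = 0.00393), and it was listed at 0 in all RACVECs and MACs. All 3 SoxF factors were therefore higher without overlap, as 15.8% of all genes were. Sox17 was the lowest of the 3 in each Akt-RACVEC. Bcl6b, a zinc finger repressor of endothelium, was at 1008, 676 and 567 FPKM against 24.6, 7.07 and 0.50 (log2 fold change 6.75 ± 1.18, adjusted p = 0.000806). Hhex, a homeobox factor of blood and vessel precursors, was at 237, 209 and 407 FPKM against 1.77, 15.1 and 53.5 (log2 fold change 4.34 ± 0.85, adjusted p = 0.00191). Tal1, a factor shared by blood and endothelial precursors, was at 67.1, 68.3 and 75.8 FPKM against 0.55, 8.22 and 26.5 (log2 fold change 3.28 ± 0.71, adjusted p = 0.00349). Hhex and Tal1 had their highest Akt-MAC values in Akt-MAC 3. Elk3, an Ets family member that was not transduced, was at 703, 653 and 1025 FPKM against 199, 118 and 87.7 (log2 fold change 2.60 ± 0.54, adjusted p = 0.00257). Ets2, Gata2, Klf2, Nr2f2 and Zfp366 made up the rest of the 12. Mef2c was at 123, 124 and 77.9 FPKM against 40.9, 44.2 and 23.7, without overlap but short of the threshold (log2 fold change 1.57 ± 0.77, adjusted p = 0.14), and Ets1, Lmo2, Lyl1, Epas1 and Prox1 were not called either. The rises numbered between 12 and 15 with each library left out in turn, and the list had 10 higher and 0 lower with Akt-MAC 1 alone and 15 higher and 0 lower against MACs.

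Genes of lumen formation, adhesion and small GTPase signalling had a median of 5.08, above that of every other list but the transduced factors, with 20 of 29 genes called higher and 0 lower. Rasip1, a protein needed for vessel lumens, was at 611, 923 and 679 FPKM against 6.87, 1.38 and 0.78 (log2 fold change 7.82 ± 0.88, adjusted p = 1.52e-05). Shank3, a scaffold that binds Rap1, was at 207, 432 and 249 FPKM against 2.72, 3.33 and 1.76 (log2 fold change 6.32 ± 0.64, adjusted p = 4.37e-06). Lyve1, the hyaluronan receptor of lymphatic and sinusoidal endothelium, was at 978, 810.2 and 440.3 FPKM against 0.71, 1.11 and 1.05 (log2 fold change 8.50 ± 1.14, adjusted p = 9.76e-05). Each of these 3 genes was under 7 FPKM in every Akt-MAC. She, an adaptor protein with an SH2 domain, was at 311, 411 and 286 FPKM against 0, 0.36 and 0.25 (log2 fold change 8.12 ± 0.59, adjusted p = 7.98e-08). Gimap6 of the GTPases of immunity-associated proteins was at 345, 587 and 529 FPKM against 0.80, 1.53 and 1.97 (log2 fold change 7.64 ± 0.51, adjusted p = 2.83e-08), and Gimap1, Gimap4, Gimap5 and Gimap8 were called higher as well. The Gimap genes lie in 1 cluster of related copies, and how reads shared between copies were split is not known. Krit1, Ccm2, Pdcd10, Heg1 and the Rap1 genes, which are expressed in many cell types, were not called. Col18a1, the source of endostatin, was at 889.5, 1915 and 753 FPKM against 880.0, 441 and 34.4 and was not called (log2 fold change 2.18 ± 1.01, adjusted p = 0.119), with the groups overlapping. The rises on this list numbered between 18 and 20 with each library left out in turn, and there were 16 higher and 0 lower with Akt-MAC 1 alone and 20 higher and 0 lower against MACs.

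The Notch and ephrin list had calls in both directions, with 7 of 22 genes called higher and 4 lower (18.2%, against 14.7% of all genes) and a median of -0.16. The Notch and ephrin falls numbered 2 without Akt-MAC 2, and the list had 4 higher and 1 lower with Akt-MAC 1 alone and 7 higher and 4 lower against MACs. Nrarp, a feedback inhibitor that Notch induces, was at 521, 1044 and 262 FPKM against 1.80, 10.7 and 0 (log2 fold change 7.36 ± 0.95, adjusted p = 7.02e-05). The ligand Dll4 of arteries and tip cells was at 61.4, 211 and 2.20 FPKM against 0, 0.63 and 0 (log2 fold change 4.89 ± 0.98, adjusted p = 0.00219), with Akt-RACVEC 3 close to the Akt-MACs. Dll1 was at 229, 179 and 389.8 FPKM against 7.78, 6.09 and 1.13 (log2 fold change 5.63 ± 1.32, adjusted p = 0.0056), and Notch4, the receptor most restricted to endothelium, at 98.1, 291 and 19.01 against 3.07, 2.20 and 0.39 (log2 fold change 4.99 ± 1.04, adjusted p = 0.00283). Notch2 moved the other way, at 9.72, 6.75 and 3.87 FPKM against 49.6, 45.4 and 50.7 (log2 fold change -2.74 ± 0.65, adjusted p = 0.00591). So did Notch3, the receptor of smooth muscle and pericytes, at 3.17, 2.24 and 0 FPKM against 21.6, 41.9 and 9.88 (log2 fold change -3.20 ± 0.97, adjusted p = 0.0226), which was not called without Akt-MAC 2 (adjusted p = 0.0992) or Akt-RACVEC 3 (adjusted p = 0.0887). Ephb4, the venous Eph receptor, rose, whereas Ephb2 was listed at 0 in all Akt-RACVECs and was at 79.05, 54.1 and 8.31 FPKM in Akt-MACs.

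Of 28 genes of vascular tone and coagulation, 7 were called higher (25.0%, against 6.5% of all genes) and 2 lower (7.14%, below the 14.7% of all genes). Nos3, the endothelial nitric oxide synthase, was at 898, 62.3 and 444 FPKM in Akt-RACVECs and 1.32, 1.5 and 0.56 in Akt-MACs (log2 fold change 7.14 ± 1.71, adjusted p = 0.00644), and it was nearly absent from RACVECs, at 0.87, 0 and 2.46. F2rl3, the thrombin receptor PAR4, was at 274, 391 and 31.4 FPKM and was listed at 0 in Akt-MACs. Entpd1, the ectonucleotidase CD39, was at 469, 651 and 1086 FPKM against 20.4, 31.1 and 46.1 (log2 fold change 4.44 ± 0.58, adjusted p = 7.76e-05). Vwf was carried by 1 library, at 8.51, 4.43 and 2120.5 FPKM against 0.19, 1.20 and 1.61 (log2 fold change 4.66 ± 1.62, adjusted p = 0.0415), and it was not called without Akt-MAC 1 (adjusted p = 0.102), Akt-MAC 2 (adjusted p = 0.0923), Akt-MAC 3 (adjusted p = 0.0688) or Akt-RACVEC 3 (adjusted p = 0.236). F3, or tissue factor, which starts coagulation, was at 36.5, 0 and 0 FPKM against 237, 478 and 597 (log2 fold change -6.93 ± 1.92, adjusted p = 0.0143), and it was not called without Akt-RACVEC 2 (adjusted p = 0.0613) or Akt-RACVEC 3 (adjusted p = 0.0522). Only Akt-RACVEC 1 held F3. The rises on this list numbered between 6 and 7 with each library left out in turn, and the falls 1 without Akt-MAC 1 or Akt-MAC 2 and 0 without Akt-RACVEC 2 or Akt-RACVEC 3. There were 3 higher and 0 lower with Akt-MAC 1 alone and 7 higher and 2 lower against MACs.

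Genes of the fibrillar and interstitial matrix, which mesenchymal cells of the amniotic fluid make, were lower in Akt-RACVECs. Of 41 genes, 14 were called lower and 2 higher, with a median log2 fold change of -3.51. A negative sign was found in 37 of 41, against 8156 of all 14557 genes. Col1a1, a chain of type I collagen, was at 19.2, 1.35 and 0.31 FPKM in Akt-RACVECs and 556, 271 and 971 in Akt-MACs (log2 fold change -7.06 ± 2.26, adjusted p = 0.0289), and it was not called without Akt-MAC 1 (adjusted p = 0.0612), Akt-MAC 2 (adjusted p = 0.0592), Akt-MAC 3 (adjusted p = 0.0754), Akt-RACVEC 2 (adjusted p = 0.0818) or Akt-RACVEC 3 (adjusted p = 0.0857). Lox, which crosslinks collagen and elastin, was at 25.7, 0 and 0 FPKM against 849, 235 and 768 (log2 fold change -7.49 ± 1.504, adjusted p = 0.00219). Fmod, a small proteoglycan of collagen fibrils, was at 1.03, 0 and 0 FPKM against 63.7, 1703 and 76.2 (log2 fold change -7.33 ± 1.01, adjusted p = 0.000124). Lox and Fmod were listed at 0 in Akt-RACVECs 2 and 3. Postn, a matrix protein of fibroblasts, was at 1.51, 0 and 0 FPKM against 1967, 945 and 6.76 (log2 fold change -7.49 ± 1.93, adjusted p = 0.00991), and was not called without Akt-MAC 2 (adjusted p = 0.053). The Akt-RACVECs were at 25.7 FPKM or less for these 4 genes, whereas the Akt-MACs differed from each other, and Postn was nearly absent from Akt-MAC 3. Eln, elastin, went the other way, at 39.5, 81.7 and 30.5 FPKM against 0, 0.71 and 0 (log2 fold change 5.31 ± 1.26, adjusted p = 0.00616), as did Fbln5, which organizes elastic fibres, at 727, 66.3 and 1409 against 36.7, 11.6 and 64.5 (log2 fold change 3.70 ± 1.31, adjusted p = 0.0448). Fbln5 was not called without Akt-MAC 1 (adjusted p = 0.0763), Akt-MAC 2 (adjusted p = 0.166), Akt-RACVEC 1 (adjusted p = 0.125) or Akt-RACVEC 3 (adjusted p = 0.161). The number of interstitial matrix genes called lower was 7 without Akt-MAC 1 or Akt-RACVEC 3, 6 without Akt-MAC 2 and 9 without Akt-RACVEC 2, and that called higher was 1 without Akt-MAC 1, Akt-MAC 2, Akt-RACVEC 1 or Akt-RACVEC 3. The list had 0 higher and 7 lower with Akt-MAC 1 alone and 1 higher and 18 lower against MACs.

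Genes of the basement membrane were called in both directions, with 3 of 19 called higher (15.8%) and 5 lower (26.3%). Over all genes these shares were 6.5% and 14.7%. Col4a1 was at 2172, 4247 and 4935 FPKM against 797, 491 and 883 (log2 fold change 2.35 ± 0.47, adjusted p = 0.00201), and Col4a2, its partner chain, at 1352, 2589 and 3442 against 553, 333 and 602 (log2 fold change 2.25 ± 0.47, adjusted p = 0.00273). The rarer type IV chain Col4a6 was at 0.53, 0 and 0 FPKM against 1.49, 50.7 and 88.3 (log2 fold change -4.29 ± 0.89, adjusted p = 0.00278). Lama5 was at 185, 236 and 287 FPKM against 61.6, 45.6 and 89.5 (log2 fold change 1.86 ± 0.62, adjusted p = 0.0349), and it was not called without Akt-MAC 1 (adjusted p = 0.0723), Akt-MAC 2 (adjusted p = 0.124), Akt-RACVEC 1 (adjusted p = 0.0526), Akt-RACVEC 2 (adjusted p = 0.0812) or Akt-RACVEC 3 (adjusted p = 0.0899). The numbers of falls on this list were 2 without Akt-MAC 1, 1 without Akt-MAC 2 or Akt-RACVEC 1 and 3 without Akt-RACVEC 2 or Akt-RACVEC 3, and the list had 0 higher and 2 lower with Akt-MAC 1 alone and 3 higher and 1 lower against MACs.

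Of 19 smooth muscle contractile genes, 4 were called lower (21.1%) and 2 higher, with a median of -1.99. Acta2 (chromosome 19, 34315580-34329826), smooth muscle actin, was at 110.1, 2.22 and 0.27 FPKM in Akt-RACVECs against 742, 615 and 3593 in Akt-MACs (log2 fold change -7.26 ± 2.17, adjusted p = 0.0212), and it was not called without Akt-MAC 3 (adjusted p = 0.0694), Akt-RACVEC 2 (adjusted p = 0.0726) or Akt-RACVEC 3 (adjusted p = 0.0816). Tagln was at 168, 6.04 and 5.46 FPKM against 1276, 729 and 2501 (log2 fold change -6.07 ± 1.68, adjusted p = 0.0141), not called without Akt-RACVEC 2 (adjusted p = 0.0602) or Akt-RACVEC 3 (adjusted p = 0.0528), and Cnn1 was at 4.52, 0 and 0 against 36.99, 14.2 and 95.4 (log2 fold change -4.43 ± 1.15, adjusted p = 0.0104). For these 3 genes Akt-RACVEC 1 was the highest Akt-RACVEC. Smtn, smoothelin, was at 174, 151 and 119 FPKM against 40.2, 18.98 and 45.5 (log2 fold change 2.12 ± 0.38, adjusted p = 0.000986), and Mylk, myosin light chain kinase, which endothelium also uses, at 78.4, 85.04 and 122 against 16.4, 17.97 and 40.5 (log2 fold change 1.98 ± 0.51, adjusted p = 0.00954). The smooth muscle falls numbered 1 without Akt-RACVEC 2 and 2 without Akt-RACVEC 3, and this list had 2 higher and 0 lower with Akt-MAC 1 alone and 2 higher and 5 lower against MACs. Among mesenchymal transcription factors, 3 of 31 were lower (9.68%) and 2 higher (6.45%). The falls on that list numbered 5 without Akt-MAC 1 and the rises 0 without Akt-MAC 2 or Akt-RACVEC 2 and 1 without Akt-MAC 3 or Akt-RACVEC 1, and there were 0 higher and 0 lower with Akt-MAC 1 alone and 1 higher and 8 lower against MACs. Msx2, a homeobox factor of limb and skull mesenchyme, was at 3.85, 2.10 and 0 FPKM against 30.8, 214 and 12.9 (log2 fold change -4.21 ± 1.01, adjusted p = 0.00643), and Zeb2 was at 42.1, 18.4 and 18.1 against 364, 234 and 204 (log2 fold change -3.37 ± 0.90, adjusted p = 0.0118). Twist1, Twist2, Snai2, Prrx1, Gata4 and Gata6 were not called.

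Among mesenchymal growth factors and their receptors 11 of 34 were called lower and 1 higher, with a median of -2.59. Igfbp2 (chromosome 1, 72871077-72899048) was at 3.80, 0 and 0 FPKM in Akt-RACVECs and 509, 4378 and 1654 in Akt-MACs (log2 fold change -9.84 ± 1.19, adjusted p = 3.11e-05). Ngfr, a neurotrophin receptor of neural crest and mesenchyme, was at 1.36, 0 and 0 FPKM against 1975, 826 and 10.03 (log2 fold change -7.62 ± 1.73, adjusted p = 0.00475). Fgf1 was at 1.71, 0.74 and 1.85 FPKM against 214, 1469 and 10.2 (log2 fold change -6.00 ± 1.21, adjusted p = 0.00223), and its receptor Fgfr2 at 0.35, 0 and 0 against 36.6, 205 and 17.3 (log2 fold change -5.56 ± 1.06, adjusted p = 0.00157). The Akt-MACs differed by over 10-fold for Ngfr and Fgf1, yet no Akt-RACVEC reached the lowest Akt-MAC. Kitl, the ligand of Kit that endothelium displays to stem cells, rose to 222, 792 and 145 FPKM from 84.6, 25.2 and 32.5 (log2 fold change 2.81 ± 0.67, adjusted p = 0.00613). Pdgfra, Pdgfrb and Igf2 were not called. The falls among these genes numbered 6 without Akt-MAC 2 or Akt-RACVEC 2, and the list had 0 higher and 4 lower with Akt-MAC 1 alone and 1 higher and 11 lower against MACs.

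In the Bmp and Tgf-β pathway 11 of 38 genes were called lower and 2 higher, with a median of -1.72. Both rises belong to the branch that endothelium uses: Acvrl1, the receptor Alk1, was at 349.7, 940.0 and 771 FPKM against 198, 111 and 69.5 (log2 fold change 2.45 ± 0.64, adjusted p = 0.0104), and Smad1, its mediator, at 198, 434 and 133 against 61.3, 65.4 and 51.1 (log2 fold change 1.92 ± 0.39, adjusted p = 0.00227). Secreted Bmp antagonists were among the falls. Grem1 was at 59.7, 0 and 0 FPKM against 2918, 336 and 44.98 (log2 fold change -6.50 ± 2.16, adjusted p = 0.0342), and it was not called without Akt-MAC 1 (adjusted p = 0.136), Akt-MAC 2 (adjusted p = 0.0842), Akt-RACVEC 2 (adjusted p = 0.121) or Akt-RACVEC 3 (adjusted p = 0.108). Nog was at 0, 1.36 and 0 FPKM against 8.92, 99.1 and 23.99 (log2 fold change -4.45 ± 1.22, adjusted p = 0.0135), not called without Akt-MAC 2 (adjusted p = 0.0763), and Chrdl1 was also called lower. Gdf6, a Bmp ligand, was at 1.20, 0 and 0 FPKM against 25.03, 30.9 and 423 (log2 fold change -5.76 ± 1.03, adjusted p = 0.001). The pathway falls numbered 5 without Akt-MAC 1 or Akt-MAC 2, 7 without Akt-RACVEC 2 and 4 without Akt-RACVEC 3, and the list had 0 higher and 5 lower with Akt-MAC 1 alone and 5 higher and 6 lower against MACs. An inhibitor of Tgf-β receptors was in the medium of converting cells, and its part in these values was not tested.

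Most Wnt and guidance genes called were lower, as were most calls over all genes (14.7% lower and 6.5% higher). Of Wnt genes 21.9% were called lower and 6.25% higher, and of guidance genes 29.6% and 3.70%. Of 32 Wnt genes, 7 were called lower and 2 higher: Fzd4, the frizzled receptor of retinal and other endothelium, was at 218, 209 and 275 FPKM against 5.29, 25.2 and 25.6 (log2 fold change 3.83 ± 0.78, adjusted p = 0.00237), whereas the secreted antagonist Sfrp4 was listed at 0 in Akt-RACVECs and at 14.9, 6.17 and 66.2 FPKM in Akt-MACs. The Wnt falls numbered 4 without Akt-MAC 1 and 3 without Akt-MAC 2, Akt-RACVEC 2 or Akt-RACVEC 3 and the rises 1 without Akt-MAC 1, Akt-MAC 3, Akt-RACVEC 2 or Akt-RACVEC 3, and there were 1 higher and 4 lower with Akt-MAC 1 alone and 1 higher and 4 lower against MACs. Of 27 guidance genes, 8 were called lower and 1 higher. Slit3, a ligand of Robo receptors, was at 4.86, 0 and 0.35 FPKM against 125, 61.2 and 139.6 (log2 fold change -5.69 ± 1.12, adjusted p = 0.00192). The guidance falls numbered 5 without Akt-MAC 1 and 4 without Akt-MAC 2, and there were 0 higher and 5 lower with Akt-MAC 1 alone and 2 higher and 7 lower against MACs. Sema3b was at 1.15, 0.63 and 1.49 FPKM against 977, 189.6 and 10.97 (log2 fold change -5.99 ± 1.18, adjusted p = 0.00198), and Gas1, a Hedgehog coreceptor of mesenchyme, was at 5.32, 1.21 and 0 against 106, 139 and 53.8 (log2 fold change -5.28 ± 1.44, adjusted p = 0.0135), not called without Akt-MAC 2 (adjusted p = 0.053). Of 25 matrix proteases and their inhibitors, 5 were called lower (20%) and 0 higher. The protease falls numbered 3 without Akt-MAC 1, and there were 0 higher and 0 lower with Akt-MAC 1 alone and 0 higher and 6 lower against MACs. Mmp9 was at 0.70, 0 and 0 FPKM against 21.6, 169 and 536 (log2 fold change -6.74 ± 1.21, adjusted p = 0.00103), and Mmp12, the macrophage elastase, at 0.70, 0 and 0 against 44.3, 400.5 and 438 (log2 fold change -7.39 ± 1.77, adjusted p = 0.00643), and both were highest in Akt-MACs 2 and 3. Mmp3 was at 342, 8.60 and 0 FPKM against 2642, 1709 and 8.06 and overlapped between the groups (log2 fold change -4.53 ± 2.72, adjusted p = 0.227).

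**Figure D4:**
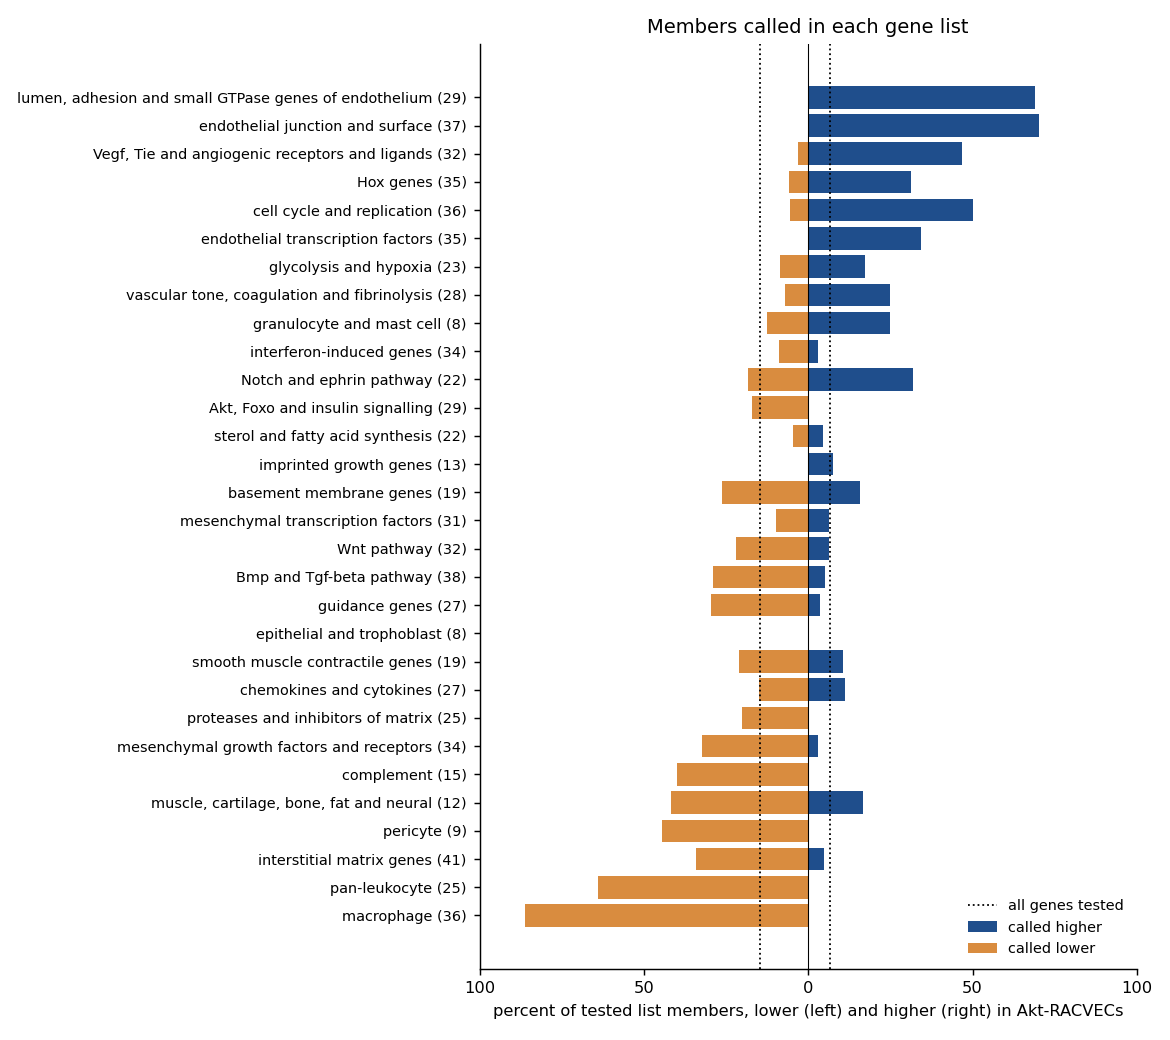
Percent of the tested members of each gene list (number in brackets) called higher (blue, to the right) or lower (orange, to the left) in Akt-RACVECs, ordered by median log2 fold change, with dotted lines at the 6.5% and 14.7% of all genes tested. Endothelial surface genes (26 of 37) and lumen genes (20 of 29) extend farthest to the right, and macrophage genes (31 of 36) farthest to the left.

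Of 36 cell cycle genes, 18 were called higher in Akt-RACVECs and 2 lower, with a median log2 fold change of 1.61. Top2a, the topoisomerase of dividing cells, was at 341, 298 and 178 FPKM against 68.6, 34.02 and 27.1 (log2 fold change 2.69 ± 0.68, adjusted p = 0.00841), and Tk1, thymidine kinase, at 171, 119 and 75.04 against 29.1, 14.3 and 16.97 (log2 fold change 2.52 ± 0.55, adjusted p = 0.00381). Birc5, or survivin, was at 359.7, 298 and 178 FPKM against 64.5, 29.1 and 38.9 (log2 fold change 2.65 ± 0.73, adjusted p = 0.0139), and was not called without Akt-MAC 2 (adjusted p = 0.0605). The inhibitor Cdkn2b was at 84.8, 149.5 and 26.3 FPKM against 651, 305 and 389 (log2 fold change -2.60 ± 0.65, adjusted p = 0.00815), and Ccnd2, cyclin D2, at 455, 518 and 287 against 966, 2372 and 1507 (log2 fold change -1.89 ± 0.50, adjusted p = 0.0108). Ccnd2 was not called without Akt-MAC 2 (adjusted p = 0.0615). The groups did not overlap for these 5 genes. The number of cell cycle genes called higher was 5 without Akt-MAC 2, 10 without Akt-MAC 3, 9 without Akt-RACVEC 1 and 8 without Akt-RACVEC 2, and that called lower was 1 without Akt-MAC 2. The cell cycle list had 1 higher and 0 lower with Akt-MAC 1 alone and 13 higher and 1 lower against MACs.

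Of 29 genes of Akt, Foxo and insulin signalling, 5 were called lower (17.2%, near the 14.7% of all genes) and 0 higher. The list had 0 higher and 2 lower with Akt-MAC 1 alone and 1 higher and 4 lower against MACs. Akt2 was at 36.8, 21.2 and 36.7 FPKM against 136, 199 and 117 (log2 fold change -2.23 ± 0.42, adjusted p = 0.00143), Irs1, an adaptor of the insulin receptor, at 1.20, 0 and 0 against 27.4, 10.8 and 11.7 (log2 fold change -3.64 ± 0.82, adjusted p = 0.00441), and Sesn1, a Foxo and p53 target, at 22.2, 10.8 and 26.03 against 48.6, 197 and 221 (log2 fold change -2.73 ± 0.66, adjusted p = 0.00653). Pik3cd, the leukocyte isoform of Pi3-kinase, was at 0.91, 0.91 and 0.28 FPKM against 6.28, 25.6 and 52.9 (log2 fold change -3.71 ± 0.85, adjusted p = 0.00489), with its highest values in Akt-MACs 2 and 3. Foxo1, Foxo3 and Mtor were not called. Of 23 genes of glycolysis and hypoxia, 4 were called higher (17.4%, against 6.5% of all genes) and 2 lower (8.70%, below the 14.7% of all genes). The rises numbered 0 without Akt-MAC 2, Akt-MAC 3 or Akt-RACVEC 2 and 2 without Akt-RACVEC 1. The falls numbered 1 without Akt-MAC 2, Akt-RACVEC 1 or Akt-RACVEC 3. There were 0 higher and 0 lower with Akt-MAC 1 alone and 3 higher and 1 lower against MACs. Slc2a3, a glucose transporter that fell, was at 0.74, 4.24 and 0 FPKM against 41.9, 23.4 and 54.1 (log2 fold change -4.21 ± 0.93, adjusted p = 0.00391).

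Hox genes, which record the position of cells along the body axis, were not uniform. Of 35 tested, 11 were called higher (31.4%, against 6.5% of all genes) and 2 lower (5.71%, below the 14.7% of all genes), with a median of 1.97. The rises lay in the middle of the Hoxa, Hoxb and Hoxd clusters (Hoxa4 to Hoxa7, Hoxb5 to Hoxb8, Hoxd4, Hoxd8 and Hoxd9) and the falls at the end of the Hoxc cluster. Hoxb8 was at 248, 342 and 123 FPKM in Akt-RACVECs against 18.1, 10.6 and 0 in Akt-MACs (log2 fold change 5.18 ± 1.29, adjusted p = 0.00799). Hoxc13 was listed at 0 in Akt-RACVECs and was at 47.4, 1.45 and 8.78 FPKM in Akt-MACs. The same genes varied between MACs, where Hoxb8 was at 1.95, 3.42 and 73.8 FPKM, and the rises numbered 3 without Akt-MAC 2 or Akt-MAC 3, 5 without Akt-RACVEC 1 or Akt-RACVEC 2 and 7 without Akt-RACVEC 3 and the falls 1 without Akt-MAC 1, Akt-RACVEC 1, Akt-RACVEC 2 or Akt-RACVEC 3. The Hox genes had 1 higher and 4 lower with Akt-MAC 1 alone and 7 higher and 0 lower against MACs. The imprinted gene Mest was at 2913, 4619.7 and 2956 FPKM against 158, 195 and 349 (log2 fold change 3.95 ± 0.82, adjusted p = 0.00264), the only call among 13 imprinted growth genes.

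Macrophage genes had the lowest median of the lists. Of 36 macrophage genes tested, 31 were called lower and 0 higher, with a median log2 fold change of -6.55. The sign was negative in 36 of 36, against 8156 of all 14557 genes. Of 25 pan-leukocyte genes, 16 were called lower and 0 higher. Adgre1, the macrophage antigen F4/80, was at 4.49, 0 and 0 FPKM in Akt-RACVECs and 56.6, 1648 and 4105 in Akt-MACs (log2 fold change -8.69 ± 1.44, adjusted p = 0.000588). C1qb, a chain of complement C1q that macrophages make, was at 3.32, 0 and 0 FPKM against 54.8, 1154 and 2925 (log2 fold change -8.46 ± 1.82, adjusted p = 0.00342), and Tyrobp, an adaptor of myeloid receptors, at 4.56, 0 and 0 against 61.04, 1561 and 4566 (log2 fold change -8.75 ± 1.85, adjusted p = 0.00311). Marco, a scavenger receptor that is not on the list, was at 7.16, 0 and 0 FPKM against 69.1, 2253 and 5714 (log2 fold change -8.91 ± 1.55, adjusted p = 0.0008), and Cd5l, a secreted product of tissue macrophages, at 8.58, 0 and 0 against 33.01, 2967 and 9098 (log2 fold change -8.84 ± 1.64, adjusted p = 0.00127). Each of these 5 genes was over 10-fold higher in Akt-MACs 2 and 3 than in Akt-MAC 1 and was listed at 0 in Akt-RACVECs 2 and 3. They were listed at 0 in all 3 MACs and all 3 RACVECs too. Lyz2, the lysozyme of myeloid cells, which has the near copy Lyz1, was at 134, 49.7 and 3.81 FPKM against 708, 5939 and 21124 (log2 fold change -7.12 ± 2.45, adjusted p = 0.0394), and it was not called without Akt-MAC 2 (adjusted p = 0.104), Akt-MAC 3 (adjusted p = 0.126), Akt-RACVEC 2 (adjusted p = 0.0751) or Akt-RACVEC 3 (adjusted p = 0.133).

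The calls on leukocyte genes changed with the libraries that stood for cells without Ets factors. Against MACs, 0 of the 36 macrophage genes were called lower and 1 higher, and of 25 pan-leukocyte genes 1 was lower and 2 were higher. With Akt-MAC 1 as the only Akt-MAC, the median log2 fold change was -3.33 for macrophage genes and -1.84 for pan-leukocyte genes. With all Akt-MACs these medians were -6.55 and -4.85. With each library left out in turn, the macrophage falls numbered 23 to 32 and the pan-leukocyte falls 13 to 21. The summed FPKM of both lists (65 genes) was 4132, 31733 and 87542 in Akt-MACs and 3187, 1966 and 1218 in Akt-RACVECs, without overlap (exact permutation test over the 6 libraries, two-sided, p = 0.1, the smallest p that 3 against 3 allows). The lowest Akt-MAC value was close to the highest of the MACs, 3982, and below RACVECs 1 and 2, at 4817 and 4957. The pan-leukocyte list alone overlapped between the groups, at 1715 in Akt-MAC 1 and 2177 in Akt-RACVEC 1.

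The lists for other blood cells and for other tissues held few genes that could be tested. Of 20 T, B and NK cell genes in the tables, 5 could be tested and 3 (Cd4, Cd79b and Il7r) were called lower, with 25.0 FPKM of Il7r as their highest value in an Akt-MAC. There were 0 higher and 1 lower with Akt-MAC 1 alone and 0 higher and 0 lower against MACs. Granulocyte and mast cell genes summed to 959, 50.7 and 60.6 FPKM in Akt-MACs and 639, 109.5 and 20.2 in Akt-RACVECs. Most of the highest sums came from S100a8, a calcium-binding protein of neutrophils that was singled out after its values were seen, at 934, 33.7 and 26.8 FPKM in Akt-MACs and 612, 79.9 and 0 in Akt-RACVECs, which was not called. Of 22 such genes, 8 could be tested, with 2 higher and 1 lower. The rises numbered 1 without Akt-MAC 1, Akt-MAC 2, Akt-MAC 3, Akt-RACVEC 2 or Akt-RACVEC 3 and the falls 0 without Akt-MAC 3, Akt-RACVEC 1 or Akt-RACVEC 2, with 0 higher and 2 lower with Akt-MAC 1 alone and 2 higher and 0 lower against MACs. The erythroid and yolk sac endoderm list summed to 612, 248 and 2770.3 FPKM in Akt-MACs and 27.9, 8.90 and 2.57 in Akt-RACVECs. Of 6 genes tested on it, 1 was called lower, Trf, which encodes the iron carrier transferrin, at 5.24, 0 and 0.72 FPKM against 606, 235 and 2681 (log2 fold change -8.36 ± 1.52, adjusted p = 0.0011). Trf held most of that sum in each Akt-MAC and was at 124, 246 and 5632 FPKM in MACs. Afp and Ttr, which yolk sac endoderm makes, were under 10 FPKM in each of the 6 libraries. The list had 0 higher and 1 lower with Akt-MAC 1 alone and 0 higher and 1 lower against MACs. Of 20 epithelial and trophoblast genes, 8 could be tested and 0 were called, with summed levels of 58.0 to 253 FPKM in Akt-MACs and 1.09 to 85.3 in Akt-RACVECs. Among 9 pericyte genes, 4 were called lower, Steap4 at 9.88, 16.9 and 4.48 FPKM against 234, 421 and 333 (log2 fold change -4.97 ± 1.17, adjusted p = 0.0058) among them. The pericyte falls numbered 1 without Akt-MAC 2 or Akt-RACVEC 3 and 2 without Akt-RACVEC 1, and there were 0 higher and 1 lower with Akt-MAC 1 alone and 0 higher and 4 lower against MACs.

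Of 15 complement genes, 6 were called lower and 0 higher. Cfp, or properdin, which myeloid cells store, was at 7.65, 4.83 and 8.46 FPKM against 25.96, 713 and 1730.5 (log2 fold change -5.36 ± 1.14, adjusted p = 0.00313), and the anaphylatoxin receptors C5ar1 and C3ar1 fell with the macrophage genes, C5ar1 at 1.08, 5.66 and 0 against 25.4, 204 and 729 (log2 fold change -6.04 ± 1.40, adjusted p = 0.00533). The complement falls numbered between 4 and 5 with each library left out in turn, and there were 0 higher and 1 lower with Akt-MAC 1 alone and 0 higher and 3 lower against MACs. Of 27 chemokine and cytokine genes, 3 were called higher and 4 lower (14.8%, against 14.7% of all genes). The chemokine and cytokine rises numbered 1 without Akt-RACVEC 3 and the falls 1 without Akt-MAC 2 and 7 without Akt-RACVEC 1, with 0 higher and 3 lower with Akt-MAC 1 alone and 1 higher and 0 lower against MACs. Csf3, the granulocyte colony-stimulating factor, was at 427, 112 and 2.48 FPKM against 0, 0 and 2.46 (log2 fold change 5.19 ± 1.19, adjusted p = 0.00506), with the lowest Akt-RACVEC barely above the highest Akt-MAC. Il34, a ligand of the macrophage receptor Csf1r, was at 1.88, 7.72 and 0.96 FPKM against 75.01, 176 and 10.7 (log2 fold change -3.88 ± 1.00, adjusted p = 0.00977), not called without Akt-MAC 2 (adjusted p = 0.0622), and Csf1, the other ligand, was at 287, 43.8 and 255 against 488, 865 and 1816 (log2 fold change -2.62 ± 0.84, adjusted p = 0.0296), not called without Akt-MAC 2 (adjusted p = 0.0721), Akt-MAC 3 (adjusted p = 0.111) or Akt-RACVEC 2 (adjusted p = 0.157). Of 34 interferon-induced genes, 3 were called lower (8.82%) and 1 higher, with a median of 0.04. The interferon list falls numbered 5 without Akt-MAC 1 and 1 without Akt-MAC 2 or Akt-RACVEC 2, with 1 higher and 0 lower with Akt-MAC 1 alone and 6 higher and 2 lower against MACs. Ifit2 was at 7.32, 16.6 and 12.2 FPKM against 96.1, 96.5 and 85.6 (log2 fold change -2.91 ± 0.68, adjusted p = 0.00578), and Slfn9 at 51.9, 61.3 and 83.2 against 9.19, 8.88 and 11.8 (log2 fold change 2.58 ± 0.37, adjusted p = 0.000164).

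Among the genes called, the most abundant were of mixed function. Ctla2a, a cysteine protease inhibitor, was at 5102, 10711 and 3882 FPKM in Akt-RACVECs and 32.9, 36.6 and 98.2 in Akt-MACs (log2 fold change 6.89 ± 0.91, adjusted p = 8.8e-05). Plac8 was at 4985, 5389 and 3841 FPKM against 28.4, 10.8 and 47.6 (log2 fold change 7.51 ± 1.21, adjusted p = 0.000463), and Procr, the endothelial protein C receptor, at 2622, 1536 and 8321 against 112, 55.97 and 162 (log2 fold change 4.99 ± 0.78, adjusted p = 0.000367). Fabp4, a fatty acid binding protein of capillaries, adipocytes and macrophages, was at 3853, 3542 and 5822 FPKM against 127, 129 and 272 (log2 fold change 4.70 ± 1.38, adjusted p = 0.0191), and was not called without Akt-MAC 2 (adjusted p = 0.0628) or Akt-RACVEC 3 (adjusted p = 0.0504). All Akt-RACVECs exceeded all Akt-MACs for these 4 genes. Among abundant falls, Spp1, or osteopontin, was at 424, 177 and 0 FPKM against 23285, 9326 and 8843 (log2 fold change -8.20 ± 2.53, adjusted p = 0.0244), and was not called without Akt-MAC 1 (adjusted p = 0.0636), Akt-MAC 2 (adjusted p = 0.0605) or Akt-RACVEC 3 (adjusted p = 0.123). It was as abundant in MACs, at 25048, 8304 and 13431 FPKM, where the macrophage genes above were listed at 0. Fth1, ferritin heavy chain, was at 8932, 6828 and 17725 FPKM against 24791, 62984 and 58681 (log2 fold change -2.13 ± 0.64, adjusted p = 0.0206), and was not called without Akt-MAC 2 (adjusted p = 0.0804), Akt-MAC 3 (adjusted p = 0.064), Akt-RACVEC 1 (adjusted p = 0.0589) or Akt-RACVEC 2 (adjusted p = 0.0847). Retinal dehydrogenase Aldh1a1 was at 34.3, 0 and 0 FPKM against 206, 2277 and 3201 (log2 fold change -8.45 ± 2.19, adjusted p = 0.0101), and the sodium pump subunit Atp1b1 at 4.49, 7.12 and 0 against 452, 894 and 1985 (log2 fold change -8.04 ± 1.38, adjusted p = 0.000715).

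Whether the Ets factors made the same difference with and without Akt was asked by setting this comparison beside RACVECs against MACs, with which it shares no library. The Ets factors were not at like levels in both, with Erg at 0.90 to 13.8 FPKM in RACVECs and 395 to 1002 in Akt-RACVECs. By qPCR the study found Ets transcript levels unaltered by Akt. The part of the Erg level in the values below was not tested. Without Akt, 201 of the same 14557 genes were called higher (1.38%) and 188 lower (1.29%), together 2.67%. Of these, 128 higher and 143 lower were called in the same direction with Akt, which is 63.7% of the 201 and 13.53% of the 946 genes higher with Akt, and 76.1% of the 188 and 6.68% of the 2142 lower. No gene was called in opposite directions. Of the 946 genes higher with Akt, 88.3% had a positive sign without it, against 49.1% of all genes, and of the 2142 lower, 79.3% had a negative sign against 48.7%. The endothelial surface list gave 26 calls with Akt and 11 without, the lumen list 20 and 12, and the macrophage list 31 falls and 0. Cdh5 differed alike in both, at 9.68 with Akt and 9.22 without. Values for Pecam1 were 8.37 with Akt and 4.38 without, for Icam2 9.46 and 5.07, for Lyve1 8.50 and 2.88, and for Emcn 9.35 and 3.55.

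**Figure D5:**
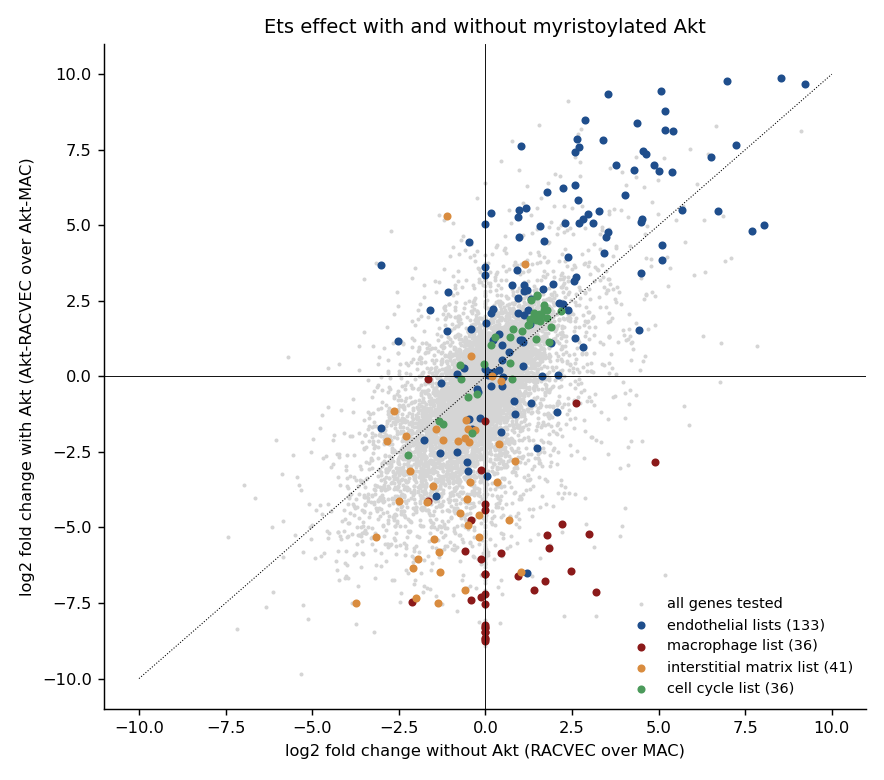
Log2 fold change of RACVECs over MACs (x axis) and of Akt-RACVECs over Akt-MACs (y axis) for 14557 genes in grey, with 133 endothelial, 36 macrophage, 41 interstitial matrix and 36 cell cycle genes in colour and a dotted line of equal change. The median of the endothelial surface list is 3.85 on the y axis and 2.10 on the x axis, and macrophage genes lie near 0 on the x axis and as low as -8.75 on the y axis.

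The difference between the 2 differences was tested in the same fit. By that test 3 genes were higher (0.0206%) and 19 were lower (0.131%), together 0.151% of the genes, against 447 and 1101 at an unadjusted p below 0.05 and past the fold threshold, and none of the 5 genes just named was among them. No member of the endothelial lists other than Gimap1 was called by it. Gimap1 was at 217, 135 and 263 FPKM in Akt-RACVECs and 0, 2.73 and 1.29 in RACVECs, and listed at 0 in MACs and Akt-MACs. Dchs1, a protocadherin of planar polarity, had a log2 fold change of 4.24 with Akt and 0.57 without (difference 3.66 ± 0.72, adjusted p = 0.049), and Fam171a2 one of 3.47 and -0.79 (difference 4.26 ± 0.80, adjusted p = 0.038). The numbers depended on Akt-MAC 1, without which 54 genes were higher and 431 lower, and on Akt-MAC 3, without which they were 9 and 78.

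Akt-RACVECs as whole profiles stood closer to cultured lung endothelium than Akt-MACs did. The Pearson correlation of log2(FPKM + 1) over 22282 genes with the mean Akt-LEC profile was 0.971, 0.960 and 0.950 in Akt-RACVECs and 0.899, 0.881 and 0.899 in Akt-MACs, a difference of 0.0674 without overlap (exact permutation test, two-sided, p = 0.1, the smallest p possible). Correlations are across genes, which are not independent replicates, and include genes at 0 in all libraries. RACVECs were at 0.945, 0.961 and 0.949, and overlapped the Akt-RACVECs. By the criterion of the study's methods, an unequal-variance test of FPKM at p below 0.05 without adjustment and a ratio past 2-fold, 498 genes were higher and 692 lower of 16279, and 0 in either direction after Benjamini-Hochberg adjustment, whereas limma on log values made 946 and 2142 calls and gave 1259 and 2861 at an unadjusted p below 0.05.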

How the data were processed

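RNA of the cultures was sequenced as paired reads. Per the labels and the study's methods, the authors aligned reads to mm9 with TopHat and deposited FPKM values per RefSeq transcript made by Cufflinks with upper-quartile normalization. The 27583 transcript values of each library were joined to mouse symbols (26934 joined) and summed to 22282 genes, so that no count test was possible and depth is unknown. limma 3.58.1 (R 4.3.3) was fitted with a variance trend to log2(FPKM + 1) of 14557 genes in all 24 libraries of 8 groups at once, and p-values were adjusted by Benjamini-Hochberg over all genes. Cultures were separate isolates according to the methods, and no 2 libraries held identical values. On simulated data the fit of Akt-RACVECs against Akt-MACs found 73 of 100 genes changed by 2 and 82 of 100 changed by 3 on the log2 scale. It also called 14 genes that were not changed. The changed genes were well above 0 in Akt-MACs, and each gene had the same spread in all groups. These shares need not hold for genes near 0 or for genes that were unequal between the Akt-MACs. The test of the difference between the changes with and without Akt found fewer, 49 and 69 of 100. Exact permutation tests and tables used Python 3.11.15 with scipy 1.17.1. Gene positions are GENCODE M1 on NCBIM37, the sequence of mm9, and promoter sequences are RefSeq's on GRCm38.p6. Named genes were the transduced genes, the 12 largest calls without overlap in each direction, up to 4 calls in each direction per list, genes that the study names, the 8 most abundant calls in each direction, the 12 largest falls outside the leukocyte lists, the members of lists under 6 genes and the 6 largest calls of the difference in each direction. Not each of them is described, and results for some genes are not reported here. The members and gene lists were chosen with earlier results of these data known. Alternatives covered the pseudocount, the filter, scaling, weights, transcripts, the samples in the fit, a replicate block and each library.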

Additional observations from a re-analysis of the deposited data

Results flagged for a closer look

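A test of the difference between the change in Akt-RACVECs over Akt-MACs and the change in RACVECs over MACs picked out 9 of the genes named by rule, 6 with a lower value with Akt and 3 with a higher one. The p-values are limma's, adjusted over 14557 genes, and the fitted differences are on the log2(FPKM + 1) scale. Ifi202b, an interferon-inducible DNA sensor with near copies in its gene family, had a difference of -11.12 ± 2.15 (adjusted p = 0.047) and was at 317, 211 and 212 FPKM in Akt-MACs, at 0, 0 and 774 in RACVECs and listed at 0 in Akt-RACVECs and MACs. Ifi207, of the same family, had a difference of -8.79 ± 1.74 (adjusted p = 0.049), at 1.64, 0.43 and 0 FPKM in Akt-RACVECs, 32.8, 75.3 and 183 in Akt-MACs, 128, 49.7 and 58.4 in RACVECs and 13.2, 16.5 and 1.27 in MACs. Fcrls, a receptor of microglia and other macrophages, had a difference of -8.05 ± 1.43 (adjusted p = 0.0237) and was at 30.4, 1009 and 1925 FPKM in Akt-MACs, with its highest values in the libraries richest in macrophage genes. Cd209f, a C-type lectin, had a difference of -7.62 ± 1.51 (adjusted p = 0.049) and was at 11.8, 1019 and 963 FPKM in Akt-MACs, and both genes were listed at 0 in MACs and RACVECs. Cntnap2, a neural adhesion protein, had a difference of -6.73 ± 0.74 (adjusted p = 0.000141) and was at 81.8, 474 and 51.5 FPKM in Akt-MACs. Trim14 had a difference of -6.69 ± 0.88 (adjusted p = 0.001), at 14.5, 54.3 and 87.5 FPKM in Akt-MACs and 6.44, 8.01 and 13.9 in RACVECs. Dchs1 had a difference of 3.66 ± 0.72 (adjusted p = 0.049), at 106, 170.1 and 81.1 FPKM in Akt-RACVECs, 11.1, 5.91 and 1.70 in Akt-MACs, 48.1, 78.1 and 36.6 in RACVECs and 29.5, 27.1 and 50.9 in MACs. Fam171a2 had a difference of 4.26 ± 0.80 (adjusted p = 0.038), at 203, 281 and 101 FPKM in Akt-RACVECs, 31.5, 12.5 and 8.76 in Akt-MACs, 13.8, 20.4 and 46.2 in RACVECs and 34.5, 48.1 and 43.3 in MACs. Gimap1 had a difference of 6.60 ± 1.26 (adjusted p = 0.0442), from the values given above. Of these 9 calls, 7 were lost without Akt-MAC 2, 7 without Akt-RACVEC 2, 7 at a mean FPKM of at least 10 and 9 with a replicate block. Only Cntnap2 and Trim14 were called with each of the 12 libraries left out in turn. The part that leukocyte transcripts of the Akt-MACs had in these differences was not tested.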

How the results depend on the processing

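The number of genes called higher in Akt-RACVECs than in Akt-MACs (946) was 534 in a fit of these 6 libraries alone and 279 with Akt-MAC 1 as the only Akt-MAC, and that of genes called lower (2142) was 843 and 796, and 1187 against MACs. It ranged from 550 to 1031 higher and from 1212 to 1935 lower with 1 library left out. For the difference between the changes with and without Akt, 3 genes were higher and 19 lower. These numbers became 1 and 15 at a pseudocount of 10 and 6 and 29 without a filter. They were 0 and 4 at a mean FPKM of at least 10 and 1 and 14 with the filter over 24 libraries. A fit of its own groups gave 14 and 13, and transcripts kept apart gave 1 and 19. With 1 library left out, the numbers ranged from 0 to 54 higher and 12 to 431 lower. For RACVECs against MACs, 201 higher and 188 lower genes became 184 and 91 at a mean FPKM of at least 10. They became 34 and 16 in a fit of the 6 libraries, and ranged from 110 to 251 and from 58 to 494 with 1 library left out. By the criterion of the methods, 498 higher and 692 lower genes became 794 and 1276 on log values and 0 and 0 with adjustment, and ranged from 231 to 484 and from 409 to 614 with 1 library left out. The correlation difference ranged from 0.0617 to 0.0726 and the difference of summed leukocyte levels from -57514 to -15809 with 1 library left out. The cause of these moves was not tested beyond the fewer samples or genes that some settings use.

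Whether replicate numbers pair the samples was not settled. Deviations of same-numbered Akt-RACVECs and Akt-MACs correlated at 0.14, -0.05 and 0.08, and not every library correlated best with its own number. With 3 libraries a group such correlations cannot exclude isolates shared between the groups. With a replicate block the 6 libraries gave 158 genes higher and 158 lower, the difference test gave 1 and 0, and RACVECs against MACs gave 0 and 0. Of 201 named genes, 119 kept direction and side of the threshold against MACs and 17 called genes changed sign: the log2 fold changes were 0.82 for Adgre1, 0.70 for C1qb, 0.65 for C1qc, 1.26 for C5ar1, 0.87 for Ccl6, 0.24 for Cd209f, 1.09 for Cd5l, 0.91 for Cfp, 0.69 for Csf3r, 0.85 for Fcer1g, 0.58 for Fcrls, 0.13 for Laptm5, 3.02 for Lyz2, 1.01 for Marco, 0.46 for Rac2, -0.89 for Snai1 and 0.83 for Tyrobp. With Akt-MAC 1 alone, Csf3r was at 0.0556. The use of Akt-MAC 1 alone and of MACs was chosen after seeing the data. Depth is unknown and limits what a value of 0 can show, and 3 libraries a group limit the precision.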

Other observations

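Some genes known from neural tissue had values in Akt-MACs and were at or near 0 in Akt-RACVECs. They were picked after their values were seen, and no list of neural genes alone was counted. Among 19 genes whose difference was lower with Akt than without, Cntnap2, Sez6, Zic1, Mag and Dab1 were listed at 0 in each Akt-RACVEC and RACVEC. Sez6 was at 159, 431 and 29.9 FPKM in Akt-MACs and Mag, a glycoprotein of myelin, at 4.53, 3.35 and 6.64, and neither was above 1 FPKM in a MAC. Sox10, the neural crest and glial factor, was at 848, 222 and 0.44 FPKM in Akt-MACs and 0.54, 0 and 0 in Akt-RACVECs. Gfap, of astrocytes and other glia, was at 30.9, 53.1 and 0 FPKM in Akt-MACs and listed at 0 in Akt-RACVECs, so Akt-MAC 3 had next to nothing of either gene. Of 12 tested genes of muscle, cartilage, bone, fat and neural tissue, 5 were called lower (Sox9, Lpl, Sox10 and Gfap among them) and 2 higher (Fabp4 and Pparg). The falls numbered 1 without Akt-MAC 1 or Akt-RACVEC 2, 0 without Akt-MAC 2 and 2 without Akt-RACVEC 3 and the rises 1 without Akt-MAC 1 or Akt-RACVEC 1 and 0 without Akt-MAC 2 or Akt-RACVEC 3, with 0 higher and 4 lower with Akt-MAC 1 alone and 0 higher and 3 lower against MACs. Sox10 was not called without Akt-MAC 1 (adjusted p = 0.113), Akt-MAC 2 (adjusted p = 0.0977), Akt-RACVEC 2 (adjusted p = 0.0595) or Akt-RACVEC 3 (adjusted p = 0.0507), and of the 6 fits that left out 1 library Gfap was called only in that without Akt-MAC 3. The 21 genes of this list in the tables summed to 4489, 2486 and 3137 FPKM in Akt-MACs and 4223, 3934 and 6064 in Akt-RACVECs, so the sums overlapped. Fabp4, at the values given above, held most of the sum in each Akt-RACVEC and little of it in each Akt-MAC. The overlap of the sums therefore does not describe the other genes of the list.

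Transcripts of sex-linked genes differed between the libraries, although each culture came from embryos of both sexes. The Y-linked genes Ddx3y, Eif2s3y, Kdm5d and Uty were listed at 0 in all 3 Akt-RACVECs and were above 0 in all 3 Akt-MACs, with Ddx3y at 171, 47.2 and 28.1 FPKM. Xist, which marks the inactive X chromosome, was at 26.9, 0.85 and 0 FPKM in Akt-RACVECs and 10.5, 117 and 163 in Akt-MACs. No sex-linked gene was called in the fit of 24 libraries, whereas 4 of 5 were called lower in a fit of these 6 libraries alone 2 of 5 with a replicate block added and 1 of 5 at a pseudocount of 0.1.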
